A study of Mus musculus with 9 samples.

Results

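The genes described here are 9 nuclear genes for mitochondrial enzymes. Cs, Idh3a, Idh3b, Idh3g, Ogdh, Suclg1, Fh1 and Mdh2 encode enzymes of the tricarboxylic acid (TCA) cycle, and Glud1 encodes glutamate dehydrogenase, which feeds the cycle. They were taken by symbol, 9 of the 54876 genes in the table, and each symbol matched 1 entry. MIN6 cells, a mouse insulinoma line (C57BL/6, per the labels) used as a model of the pancreatic beta cell, were kept for 24 h in low arginine medium (0.1 times the standard concentration), standard arginine medium (1 times) or high arginine medium (20 times). Every group is the same cell line with no other stated treatment, and each had 3 libraries. Whether the 3 came from separate cultures is not stated, so p-values speak of the scatter among these libraries alone, possibly a technical one.

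The TCA cycle oxidises acetyl-CoA in the mitochondrial matrix and yields NADH, FADH2 and GTP or ATP. In beta cells glucose oxidation through the cycle raises the ATP to ADP ratio, which closes potassium channels and starts insulin release. Carbon that leaves the cycle for other uses is replaced by anaplerosis, mainly through pyruvate carboxylase, and glutamate can enter as 2-oxoglutarate through glutamate dehydrogenase, which leucine activates allosterically.

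The libraries held 21550637 to 26300872 reads in genes, and the 9 genes drew 749 to 6945 reads each per library, with Suclg1 at the low end. Levels are in FPKM (fragments per kilobase of gene length, scaled to library size), so genes can be compared per length. Beta cell markers were present, with Ins2 at a mean of 50209 FPKM. Slc2a2, the glucose transporter of mouse beta cells, was near 0 at a mean of 0.0103 FPKM. In low against standard arginine Pdx1 (mean 373 against 150 FPKM) and Nkx6-1 (190 against 66.3 FPKM) were higher. So were Mafa (310 against 247 FPKM) and Neurod1 (67.6 against 41.4 FPKM). Ins1 (1065 against 1542 FPKM) and Ucn3 (0.188 against 0.88 FPKM) were lower. The ranges of Ins2, Iapp and Slc30a8 overlapped between these media. Of the 6 acinar, 4 ductal, 7 fibroblast and stromal, 4 endothelial and 5 leukocyte markers 0 passed the filter on low values. The summed FPKM of 6 alpha cell markers was 484 to 625 in the low, 1099 to 1185 in the standard and 1088 to 1133 in the high medium. The sum of 4 delta and PP cell markers was 8719 to 11314 in the low, 5434 to 6208 in the standard and 5721 to 5913 in the high medium. The alpha cell sum was mostly Ttr and Gc, which went opposite ways. In low against standard arginine Ttr was lower (mean 296 against 904 FPKM) and Gc higher (260 against 200 FPKM). Gcg was lower (16.3 against 25.7 FPKM). The delta and PP cell sum was nearly all Sst (mean 9758 FPKM in low, 5790 FPKM in standard arginine), with Ppy at 55.4 and 48.0 FPKM. Rbp4 and Hhex did not pass the filter on low values. The part of all these markers in the results below was not tested. In bulk RNA, fewer cells of a type and less RNA per cell cannot be told apart.

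In standard arginine the levels of the 9 genes spanned 5.73-fold. Idh3g and Mdh2 stood at the top, at 77.3 ± 7.72 and 76.0 ± 6.27 FPKM (SD, n = 3), and their ranges over libraries overlapped. Cs, Ogdh and Idh3a followed at 39.3 ± 2.73, 39.3 ± 2.32 and 35.3 ± 2.73 FPKM, again with overlapping ranges between neighbours. Glud1, Idh3b and Fh1 formed the next step, at 27.2 ± 1.16, 25.4 ± 1.3 and 25.1 ± 0.574 FPKM. Suclg1 was lowest at 13.5 ± 0.558 FPKM, below every library of Fh1. In low arginine Mdh2 and Idh3g no longer overlapped, at 57.0 ± 0.59 and 54.8 ± 0.226 FPKM, and Fh1 lay above Idh3b without overlap. In high arginine the order of the standard medium held in steps, with Mdh2 above Idh3g without overlap, at 79.6 ± 4.35 and 69.5 ± 4.24 FPKM. Summed over the 9 genes, the level was 296 ± 6.66 FPKM in the low, 358 ± 17.6 FPKM in the standard and 358 ± 8.19 FPKM in the high arginine medium (SD, n = 3 each).

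**Figure D1:**
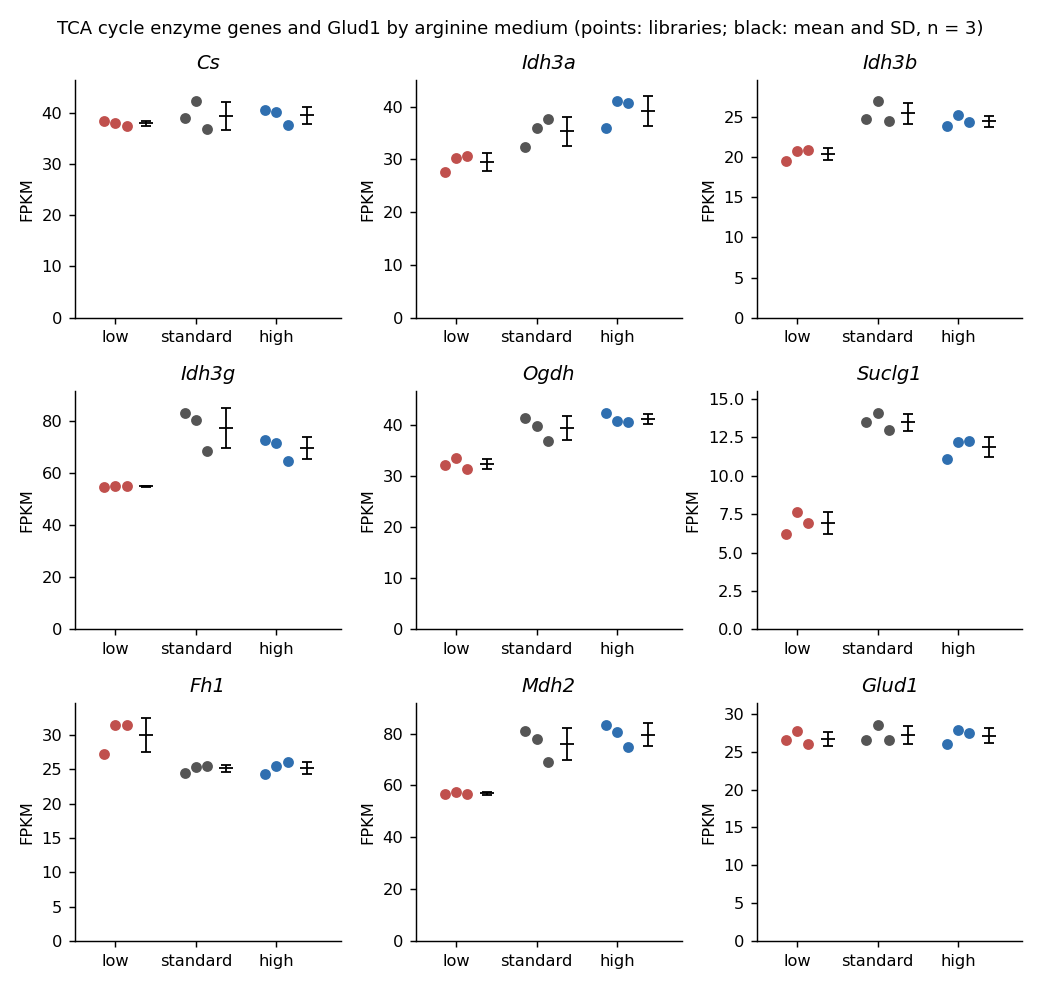
FPKM of each of the 9 genes (vertical axis, from 0) in the low, standard and high arginine libraries (points), with mean and SD beside them (n = 3 per medium). Suclg1 sits at 6.18 to 7.63 FPKM in low arginine and at 13.0 to 14.1 FPKM in standard arginine, while the points of Cs and Glud1 overlap across media.

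The first comparison asked what a deficient arginine supply did to these transcripts. In low arginine 6 of the 9 genes fell, Suclg1 the furthest and the 3 subunits of NAD-dependent isocitrate dehydrogenase among them, and Fh1 rose. Cs and Glud1 did not pass the test. The test was limma on log2(FPKM + 1) at a Benjamini-Hochberg adjusted p under 0.05, and it called 31.9% of the 12300 genes tested lower and 30.3% higher, together 62.2%. In counts 3723 genes rose and 3923 fell, against 4843 and 3018 in TPM, a scaling that moves the median of all genes by over 0.1 on the log2 scale. A call on 7 of 9 genes therefore says little about these genes as a set, and the sizes and directions below are the content. The median log2 change of the 9 was -0.27, beside 0.001 for all genes tested, and -0.17 under quantile normalization, beside 0.0158. In 7 of the 9 genes the low and standard libraries did not overlap (1 higher, 6 lower), which held for 65.4% of all genes tested (32.0% higher, 33.4% lower).

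Suclg1 (chromosome 6, 73248382 to 73276911, plus strand, GRCm38) encodes the alpha subunit of succinyl-CoA ligase, which turns succinyl-CoA into succinate and makes GTP or ATP. It had 6.18, 7.63 and 6.95 FPKM in low arginine, against 13.5, 14.1 and 13.0 FPKM in standard arginine. Every low arginine library lay below every standard one, and the low mean was 51.2% of the standard mean. The log2 change was -0.88 (SE 0.07, adjusted p 3.03e-06).

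The alpha subunit works with either of a pair of beta subunits, Sucla2 in the ATP-forming and Suclg2 in the GTP-forming enzyme. Both rose in low arginine while Suclg1 fell. Sucla2 had 15.2, 15.8 and 17.0 FPKM in low arginine, against 11.9, 12.8 and 13.2 FPKM in standard arginine, a log2 change of 0.32 (SE 0.08, adjusted p 0.00381). Suclg2 had 3.31, 3.62 and 3.54 FPKM in low arginine, against 1.71, 2.66 and 2.17 FPKM in standard arginine, a log2 change of 0.51 (SE 0.11, adjusted p 0.00196). All 3 genes kept their calls under every alternative run in this comparison. The quotient of Suclg1 over Sucla2 was 0.433 ± 0.0436 in low and 1.07 ± 0.0803 in standard arginine (SD, n = 3 each), with no overlap. Against Suclg2 it was 1.98 ± 0.123 in low and 6.38 ± 1.34 in standard arginine, also with no overlap. An exact permutation test, two-sided, gave p = 0.1 for either quotient, the smallest that 3 against 3 libraries allow.

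NAD-dependent isocitrate dehydrogenase makes 2-oxoglutarate and NADH from isocitrate. Its catalytic alpha subunit comes from Idh3a (chromosome 9, 54586334 to 54604661, plus strand), and its beta and gamma subunits from Idh3b (chromosome 2, 130279309 to 130284547, minus strand) and Idh3g (chromosome X, 73778963 to 73786897, minus strand). All 3 fell in low arginine.

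Idh3g had 54.6, 55.0 and 54.9 FPKM in low arginine, against 83.0, 80.3 and 68.5 FPKM in standard arginine. Its low libraries lay within 1 FPKM of each other and below all standard ones, with a log2 change of -0.48 (SE 0.08, adjusted p 0.000255). Idh3b had 19.5, 20.7 and 20.9 FPKM in low arginine, against 24.7, 26.9 and 24.5 FPKM in standard arginine, again without overlap, and changed by -0.30 (SE 0.06, adjusted p 0.000864). Idh3a had 27.6, 30.3 and 30.7 FPKM in low arginine, against 32.3, 36.0 and 37.7 FPKM in standard arginine. Its groups did not overlap, and its log2 change was -0.25 (SE 0.08, adjusted p 0.0149). The Idh3a call was lost in TPM (-0.13, adjusted p 0.19), under quantile normalization (-0.16, adjusted p 0.111) and without low replicate 1 (-0.2, adjusted p 0.0555).

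Between low and standard arginine the quotients of these subunits overlapped. The quotient of Idh3a over Idh3g was 0.539 ± 0.0286 in low and 0.462 ± 0.0813 in standard arginine (SD, n = 3 each), with overlap and an exact permutation p = 0.2. Idh3b over Idh3g was 0.372 ± 0.0124 in low and 0.33 ± 0.0302 in standard arginine, also with overlap and an exact permutation p = 0.2. Idh2, the mitochondrial NADP-dependent enzyme for the same conversion, had 79.0 ± 4.56 FPKM in low, against 78.3 ± 6.22 FPKM in standard arginine and did not pass (log2 change 0.01, SE 0.07). Quantile normalization gave it a call, at 0.19.

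Ogdh (chromosome 11, 6291633 to 6356642, plus strand) encodes the E1 subunit of the 2-oxoglutarate dehydrogenase complex, the step that commits 2-oxoglutarate to the cycle. It had 32.1, 33.4 and 31.4 FPKM in low arginine, against 41.4, 39.7 and 36.8 FPKM in standard arginine. The groups did not overlap, and the log2 change was -0.27 (SE 0.06, adjusted p 0.00178).

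The partner subunits of Ogdh moved in both directions. Ogdhl, an E1-like enzyme, also fell, with 24.6 ± 1.51 FPKM in low, against 44.6 ± 3.19 FPKM in standard arginine (SD, n = 3 each) and a log2 change of -0.83 (SE 0.07). So did Mrps36, which joins the E3 subunit to the complex, at -0.60 (SE 0.06). Dlst, the E2 subunit, rose to 15.8 ± 0.295 FPKM in low arginine, against 11.0 ± 0.281 FPKM in standard arginine, a log2 change of 0.48 (SE 0.05, adjusted p 1.02e-05). Dld, the E3 subunit that the pyruvate dehydrogenase complex also uses, rose by 0.64 (SE 0.09, adjusted p 9.57e-05). The quotient of Ogdh over Dlst was 2.06, 2.12 and 1.94 in low arginine, against 3.73, 3.52 and 3.43 in standard arginine, with no overlap and an exact permutation p = 0.1.

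Fh1 (chromosome 1, 175600374 to 175625635, minus strand) encodes fumarase, which hydrates fumarate to malate in the matrix and, from the same gene, in the cytosol, where fumarate also comes from the urea cycle and purine synthesis. It had 27.2, 31.5 and 31.4 FPKM in low arginine, against 24.4, 25.3 and 25.5 FPKM in standard arginine. All low libraries were above all standard ones, and replicate 1 was the lowest in both media. The log2 change was 0.25 (SE 0.06, adjusted p 0.00683), and the call held under each alternative run.

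Mdh2 (chromosome 5, 135778480 to 135790398, plus strand) encodes mitochondrial malate dehydrogenase, the next step, and moved the other way. It had 56.8, 57.6 and 56.5 FPKM in low arginine, against 81.1, 77.9 and 69.0 FPKM in standard arginine. The groups did not overlap, and the log2 change was -0.41 (SE 0.07, adjusted p 0.000406). The quotient of Fh1 over Mdh2 was 0.527 ± 0.0425 in low and 0.332 ± 0.0347 in standard arginine (SD, n = 3 each), without overlap (exact permutation p = 0.1). Mdh1, the cytosolic enzyme of the malate-aspartate shuttle, also fell, by a log2 change of -0.69 (SE 0.08).

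Cs (chromosome 10, 128337734 to 128362479, plus strand) encodes citrate synthase, which joins acetyl-CoA to oxaloacetate. The activity of that enzyme, which RNA levels do not give, is often used as a measure of mitochondrial content. Cs had 38.3, 38.0 and 37.4 FPKM in low arginine, against 38.9, 42.2 and 36.8 FPKM in standard arginine. The groups overlapped, and the log2 change of -0.05 had a 95% interval of -0.18 to 0.08. Glud1 (chromosome 14, 34310727 to 34345265, plus strand) had 26.5, 27.7 and 26.0 FPKM in low arginine, against 26.6, 28.6 and 26.5 FPKM in standard arginine, with a log2 change of -0.03 and an interval of -0.15 to 0.10. In TPM both estimates were above 0, at 0.07 for Cs and 0.10 for Glud1, without a call. The intervals of both genes hold changes of either sign, so equal levels in both media are not shown.

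**Figure D2:**
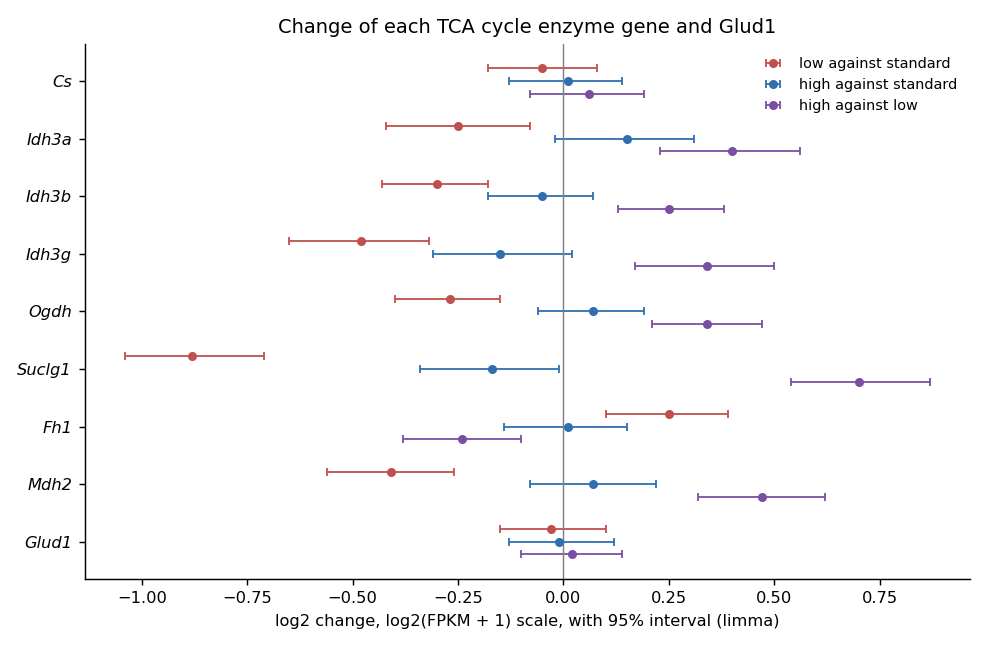
Log2 change of each of the 9 genes on the log2(FPKM + 1) scale (horizontal axis) with its 95% interval from limma, with a colour for each pair of media (3 libraries per medium). Suclg1 lies furthest from 0 in low arginine, at -0.88, Fh1 is on the other side at 0.25, and the intervals for high against standard arginine hold 0 in all genes but Suclg1.

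To show the DNA in front of genes that fell and of the gene that rose, the bases before the RefSeq start of Suclg1, Idh3g, Mdh2 and Fh1 were read (RefSeq, GRCm38.p6, 5′ to 3′ on the gene's own strand). For Suclg1 and Mdh2 the stretch ends where the entry of the table begins, ahead of the RefSeq start. Capitals mark matches to the motifs searched. The windows are chr6:73248255-73248381 for Suclg1, chrX:73786898-73787147 for Idh3g, chr5:135778399-135778479 for Mdh2 and chr1:175625636-175625885 for Fh1.
Suclg1: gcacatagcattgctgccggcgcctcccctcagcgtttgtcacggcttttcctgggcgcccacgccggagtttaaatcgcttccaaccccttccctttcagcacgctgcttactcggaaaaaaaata
Idh3g: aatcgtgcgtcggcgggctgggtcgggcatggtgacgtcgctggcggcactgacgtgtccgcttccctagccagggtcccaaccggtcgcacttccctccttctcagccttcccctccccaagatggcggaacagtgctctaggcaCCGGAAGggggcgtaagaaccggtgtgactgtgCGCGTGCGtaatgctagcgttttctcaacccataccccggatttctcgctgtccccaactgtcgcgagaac
Mdh2: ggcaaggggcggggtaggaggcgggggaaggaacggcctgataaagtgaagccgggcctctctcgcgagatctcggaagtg
Fh1: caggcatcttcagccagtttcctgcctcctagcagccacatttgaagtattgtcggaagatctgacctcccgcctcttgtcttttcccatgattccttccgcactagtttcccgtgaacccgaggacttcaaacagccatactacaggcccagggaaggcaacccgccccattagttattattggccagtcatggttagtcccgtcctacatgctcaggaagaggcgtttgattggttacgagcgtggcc

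Motifs were searched on both strands in the 250 bases before each RefSeq start, for 8 of the 9 genes, and in 32851 promoters of the same length. The NRF1 core CGCANGCG, the motif of a regulator of nuclear genes for mitochondria, was found in Idh3g, Ogdh and Glud1, and in 6.76% of all promoters. The ETS motif CCGGAAG was found in Idh3g and Glud1, and in 6.91% of all promoters. The CRE TGACGTCA was found in Mdh2, outside the stretch printed, and in Ogdh, and in 1.55% of all promoters, and the E-box CACGTG in Ogdh, and in 6.02%. Ogdh has several RefSeq starts, so it had more sequence to match. The amino acid response element TGATGCAAT and the ERR motif TCAAGGTCA had no match in the windows of these genes and stood in 0.167% and 0.387% of all promoters. Of the genes with a match, Idh3g, Ogdh and Mdh2 fell in low arginine and Glud1 did not pass the test. Suclg1, which fell furthest, Fh1, which rose, and Cs, which did not pass, had no match. Whether a match goes with a fall was not tested. A match is a string of letters and not a bound site.

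The wider pathway was followed in 58 further genes, of which 52 passed the filter on low values. In low arginine 10 of the 52 rose and 24 fell, and 18 did not pass, with a median log2 change of -0.14. Over all genes tested 30.3% rose and 31.9% fell, together 62.2%, which also stands beside the counts per list below. Of 12 other TCA cycle subunits 4 rose and 5 fell, with a median of -0.02. The 4 that rose were Dlst, Dld, Suclg2 and Sucla2, described above. Succinate dehydrogenase, which is also complex II of the respiratory chain, was lower in Sdha, its flavoprotein subunit, at 34.3 ± 1.91 FPKM in low, against 44.2 ± 0.694 FPKM in standard arginine (log2 change -0.36, SE 0.06), and in Sdhc, a membrane anchor, at -0.31 (SE 0.06). Its other subunits did not pass, with Sdhb at 0.09 (adjusted p 0.246) and Sdhd at -0.05 (adjusted p 0.475). Of 3 tested assembly factors of succinate dehydrogenase Sdhaf4 fell, by a log2 change of -0.39 (SE 0.07).

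**Figure D3:**
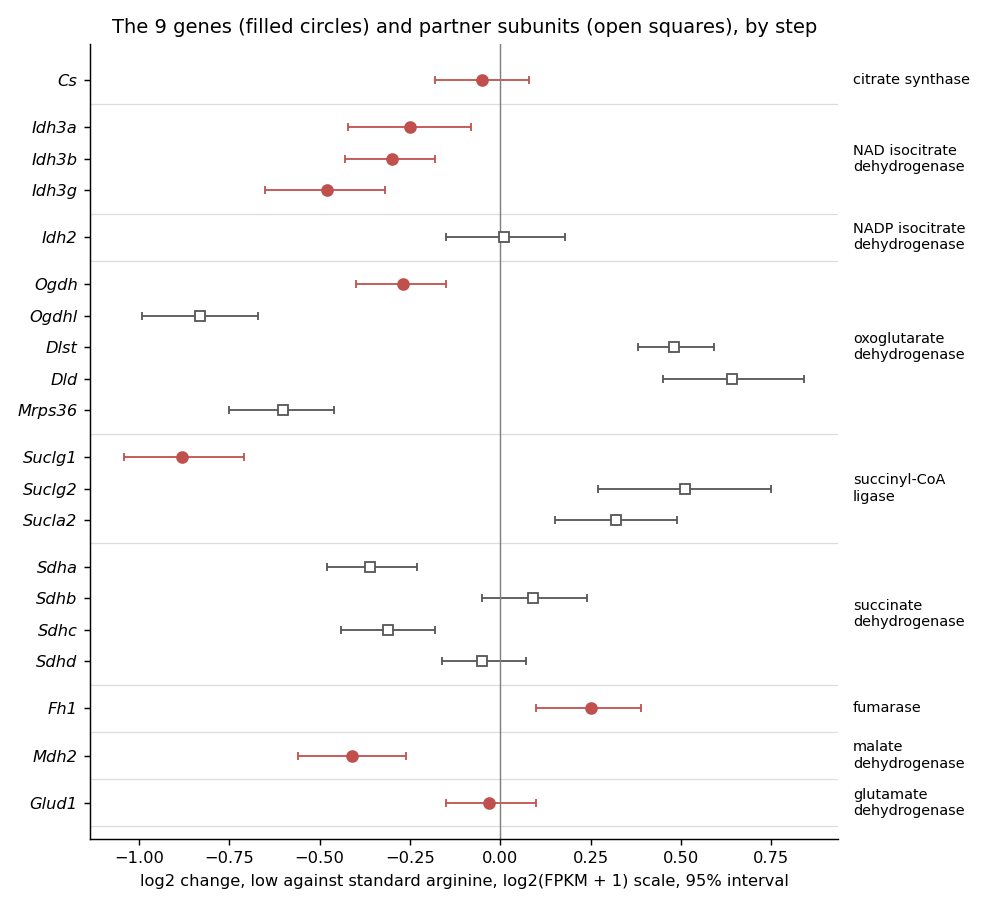
Log2 change in low against standard arginine with its 95% interval (horizontal axis), for the 9 genes (filled circles) and partner subunits (open squares), ordered by step of the cycle from top to bottom (3 libraries per medium). Within succinyl-CoA ligase Suclg1 is at -0.88 and Suclg2 and Sucla2 are at 0.51 and 0.32, and within 2-oxoglutarate dehydrogenase Ogdh is at -0.27 and Dlst and Dld are at 0.48 and 0.64.

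Of 12 tested genes of pyruvate entry 2 rose and 5 fell in low arginine, with a median of -0.06. Pdk1, a kinase that inhibits pyruvate dehydrogenase, fell to 3.88 ± 0.0653 FPKM in low arginine, against 15.4 ± 2.01 FPKM in standard arginine (log2 change -1.74, SE 0.09), and Pdk2 changed by -0.61 (SE 0.09). Pdp2, a phosphatase that activates the same enzyme, fell to 1.36 ± 0.0511 FPKM, against 5.36 ± 0.339 FPKM in standard arginine (log2 change -1.43, SE 0.06). Its paralogue Pdp1 rose by 0.36 (SE 0.08), while Pdk1, Pdk2 and Pdp2 fell. Pdpr, a regulatory subunit of the phosphatase, was called at 0.16 (SE 0.06, adjusted p 0.0428). Its call was lost without low replicate 1 or 2, standard replicate 1 or 2, or high replicate 2 or 3 (adjusted p 0.0509 to 0.134), and with no filter on low values, with quantile normalization or with the 2 groups alone.

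Of 14 tested genes of anaplerosis and its reverse 3 rose and 7 fell in low arginine, with a median of -0.19. Pcx, pyruvate carboxylase, had 30.0, 29.0 and 28.9 FPKM in low arginine, against 37.5, 35.6 and 31.8 FPKM in standard arginine (log2 change -0.24, SE 0.07, adjusted p 0.0149). That call was lost in TPM (-0.12), under quantile normalization (-0.14) and without standard replicate 1 (adjusted p 0.0628). The rises were Gpt2, mitochondrial alanine transaminase, at 34.5 ± 1.66 FPKM in low, against 19.7 ± 0.918 FPKM in standard arginine (log2 change 0.78, SE 0.06), Glul, glutamine synthetase (0.36, SE 0.05), and Pck2, mitochondrial phosphoenolpyruvate carboxykinase (0.26, SE 0.07). Gls2, a glutaminase, fell by 0.60 (SE 0.08), with Mcee, of the propionyl-CoA route (-0.52, SE 0.09), and Me2, a mitochondrial malic enzyme (-0.44, SE 0.06). Gls2 overlaps Spryd4 on the other strand.

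Of 11 tested cytosolic partners and carriers 1 rose and 6 fell in low arginine, with a median of -0.22. Idh1, the cytosolic NADP-dependent isocitrate dehydrogenase, fell to 4.97 ± 0.489 FPKM in low arginine, against 30.4 ± 3.1 FPKM in standard arginine (log2 change -2.39, SE 0.09), a larger estimate than that of any of the 9 genes. Slc25a1, the carrier that exports citrate from the matrix, fell to 22.0 ± 1.57 FPKM, against 71.3 ± 6.71 FPKM in standard arginine (log2 change -1.65, SE 0.09). Got1, cytosolic aspartate transaminase, was the gene that rose, by 0.49 (SE 0.05).

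The next question was what excess arginine did. In limma 0 of the 9 genes passed in high against standard arginine, and 1, Suclg1, had an unadjusted p under 0.05, as did 1762 of the 12300 genes tested. Across all genes 0.309% were called (0.138% higher, 0.171% lower). With array weights Idh3a was called higher (0.24, adjusted p 0.0387) and Idh3g lower (-0.21, adjusted p 0.0475), and with voom weights 0 were called. Suclg1 had 11.1, 12.2 and 12.3 FPKM in high arginine, against 13.5, 14.1 and 13.0 FPKM in standard arginine. Its groups did not overlap, which held for 18.5% of all genes tested (10.4% higher, 8.14% lower), and its log2 change was -0.17 (95% interval -0.34 to -0.01, adjusted p 0.317). The other 8 genes overlapped between media.

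Idh3a had 35.9, 41.0 and 40.7 FPKM in high arginine, against 32.3, 36.0 and 37.7 FPKM in standard arginine (log2 change 0.15, interval -0.02 to 0.31). Idh3g had 72.5, 71.4 and 64.7 FPKM in high arginine, against 83.0, 80.3 and 68.5 FPKM in standard arginine (log2 change -0.15, interval -0.31 to 0.02). These subunits of the same enzyme thus had estimates on opposite sides of 0, and neither passed. The quotient of Idh3a over Idh3g was 0.566 ± 0.0679 in high and 0.462 ± 0.0813 in standard arginine (SD, n = 3 each), with overlap (exact permutation p = 0.2). For Cs, Idh3b, Ogdh, Fh1, Mdh2 and Glud1 the log2 change lay between -0.05 and 0.07, and their intervals reached from -0.18 at the lowest to 0.22 at the highest. Of the 52 further pathway genes 0 passed in limma, 6 had an unadjusted p under 0.05, a smaller share than that over all genes, and the median was 0.01. The alternatives were read only for the further genes picked by the naming rule. Among those, array weights called Glul higher (0.15), and Gpt2 (-0.2), Ogdhl (-0.25) and Pdk1 (-0.32) lower. The quotient of Suclg1 over Sucla2 was 0.916, 0.873 and 0.837 in high arginine, against 1.13, 1.1 and 0.981 in standard arginine, without overlap (exact permutation p = 0.1). Against Suclg2 it was 5.45, 4.7 and 5.82 in high arginine and 7.88, 5.29 and 5.96 in standard arginine, with overlap (exact permutation p = 0.4).

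High arginine was then set against low arginine directly. Both earlier comparisons share the standard libraries, and this one tests the difference between them. Of the 9 genes 6 were higher and 1 lower in high arginine, where 32.3% and 29.2% of all genes were called, together 61.5%. In counts 3967 genes were higher and 3594 lower, against 3094 and 4735 in TPM. The same 7 genes did not overlap between these media, as did 68.4% of all genes tested (35.3% higher, 33.1% lower). Suclg1 was at 11.9 ± 0.653 FPKM in high and 6.92 ± 0.725 FPKM in low arginine (SD, n = 3 each), a log2 change of 0.70 (SE 0.07, adjusted p 1.47e-05). Mdh2 was at 79.6 ± 4.35 FPKM in high and 57.0 ± 0.59 FPKM in low arginine, a log2 change of 0.47 (SE 0.07, adjusted p 0.000135). Idh3a, with 39.2 ± 2.88 FPKM in high and 29.5 ± 1.68 FPKM in low arginine, changed by 0.40 (SE 0.08, adjusted p 0.00102).

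Idh3a was thus called in this comparison under every alternative run, unlike in low against standard arginine. The quotient of Idh3a over Idh3b was 1.51, 1.63 and 1.68 in high arginine, against 1.42, 1.46 and 1.47 in low arginine, without overlap (exact permutation p = 0.1). Ogdh, Idh3g and Idh3b were higher in high arginine by 0.34 (SE 0.06), 0.34 (SE 0.08) and 0.25 (SE 0.06). Fh1 was at 25.2 ± 0.9 FPKM in high and 30.0 ± 2.47 FPKM in low arginine, a log2 change of -0.24 (SE 0.06, adjusted p 0.00814). Cs (0.06, interval -0.08 to 0.19) and Glud1 (0.02, interval -0.10 to 0.14) did not pass. The median of the 9 was 0.34, beside 0.01 for all genes tested, and 0.19 under quantile normalization, beside -0.0157. Of the 52 further pathway genes 24 were higher and 10 lower in high arginine, beside 32.3% and 29.2% of all genes tested. Among the partners Suclg2 (-0.47, SE 0.11), Sucla2 (-0.22, SE 0.08), Dlst (-0.41, SE 0.05) and Dld (-0.56, SE 0.09) were lower. The Sucla2 call was lost without low replicate 2 or 3 or high replicate 1 (adjusted p 0.0503 to 0.0964) and with no filter on low values.

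**Figure D4:**
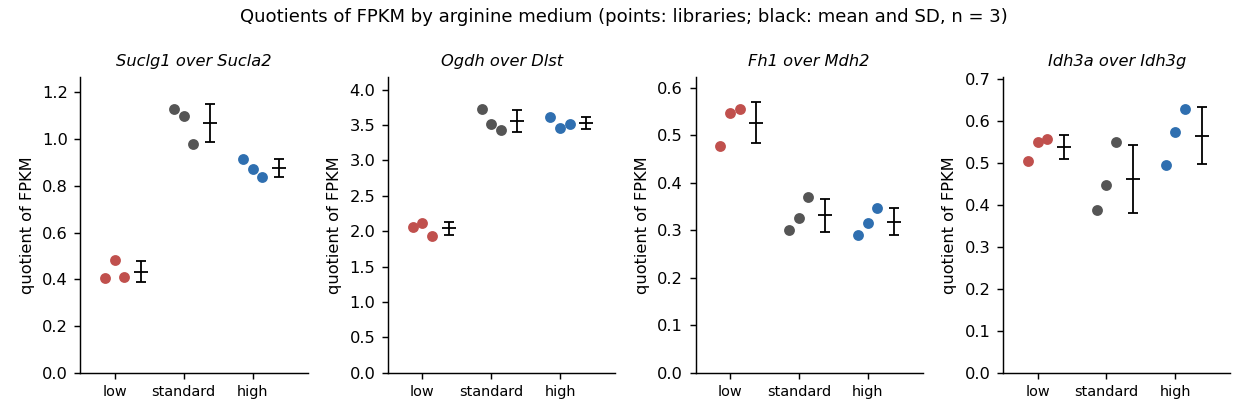
Quotients of FPKM (vertical axis, from 0) in each low, standard and high arginine library (points), with mean and SD (n = 3 per medium). Suclg1 over Sucla2 and Ogdh over Dlst are lower in all 3 low arginine libraries than in the other 6, Fh1 over Mdh2 is higher in all 3, and Idh3a over Idh3g overlaps across media.

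For each of the 9 genes the gene with the most alike profile was sought among 6981 tested genes of mean FPKM 5 or more with a full symbol (not Gm with digits, nor ending in Rik), outside the pathway and marker lists, by the root mean square difference of log2(FPKM + 1) values over the 9 libraries after centring. The nearest to Ogdh was Rangap1, and to Fh1 Tbpl1, each at a difference of 0.021. Cs was nearest to Ap1s1 and Idh3b to Rpl7, both at 0.028, and Idh3a to Actr3 and Mdh2 to Yipf3, both at 0.031. Glud1 was nearest to Vdac2, at 0.032, and Idh3g to Rplp1, at 0.036. Suclg1 had the least close match, Tceal5 at 0.054, which was at 19.8 ± 1.56 FPKM in the low, 34.3 ± 1.7 FPKM in the standard and 31.2 ± 1.54 FPKM in the high medium (SD, n = 3 each). Rpl7 and Rplp1 are ribosomal protein genes whose many copies can share reads.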

How the data were processed

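Directional libraries of total RNA were sequenced, per the labels' protocols; CASAVA 1.8, HISAT2 2.0.5 and featureCounts 1.5.0-p3 are named in the submitters' processing notes. The authors deposited FPKM per gene and library with gene lengths, per the file headers. The sources used here do not give the strand setting for featureCounts. The notes name mm9, but of 54409 gene IDs also found in GENCODE M21, 98.33% have the GRCm38 coordinates of that annotation, which are used here. FPKM times length fell on whole reads (within 0.01) in 100% of values, so reads were rebuilt. The library size behind the FPKM differed from the reads in genes, so between-library scaling was already in the values. It was 1.0483 to 1.0767 times those reads in the low, 0.9621 to 1.016 in the standard and 0.9689 to 0.9943 in the high libraries. Compared with scaling by reads in genes, this lowered the low arginine values relative to the other media.

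Genes with FPKM of at least 1 in at least 3 libraries were kept (12300; all 9 genes described passed). Limma 3.58.1 (R 4.3.3) was fitted to log2(FPKM + 1) over the 9 libraries, with group as sole term and a variance trend; this scale understates changes of low genes. Tests are two-sided, with Benjamini-Hochberg adjustment across the 12300 genes. The procedure was also run on simulated data, in which few genes changed and all had the same noise. Most genes were called in low against standard arginine, so that run cannot judge the scaling between media. Replicate pairs differed by more than sampling noise (chi-square per degree of freedom 2.586 to 12.605). Replicate numbers were not taken to pair samples, because the labels state no pairing. Even so, 6 of 9 same-number correlations of deviations exceeded 0.1 (range -0.036 to 0.243), so a shared replicate effect is possible. A replicate block was therefore fitted as an alternative. Quotients were compared by exact permutation tests (scipy 1.17.1).

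The 9 genes and all lists were chosen with earlier results of these data known. Further pathway genes named were, per list and comparison, up to 3 called rises and 3 called falls of greatest size, plus a fixed set with Pcx, Idh2, Dlst, Dld, Suclg2, Sucla2 and Sdha; some genes the rule names are not reported here. BLAST 2.17.0 found transcripts of at least 90% identity over 200 bases for Cs (highest level 0 FPKM) and Glud1 (Glud-ps, 0.655 FPKM). Idh3b shares 5 exon bases with Nop56 on the other strand. The table held 0 unused columns of per-sample values.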

Additional observations from a re-analysis of the deposited data

How the results depend on the processing

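Among the values of the 9 genes under the alternatives (pseudocount, filter, scaling, libraries in the fit, variance model, weights, replicate block, each library left out), 535 stayed on the same side of the test's threshold, 3 lost their call, all Idh3a in low arginine, and 2 gained one, Idh3a and Idh3g in high arginine with array weights. For the other named genes 1624 stayed on the same side, 31 lost and 13 gained a call. Not every alternative could move a result, so these tallies overstate how firm the calls are. Median-of-ratios scaling gave the counts of the main fit, and leaving out a library of the medium not compared kept the log2 change. No called value changed sign, but uncalled ones near 0 did, such as Cs in low against standard arginine (0.07 in TPM, 0.06 under quantile normalization) and in high against low arginine (-0.07 in both). In TPM the median of all genes in low against standard arginine was 0.1152 on the log2 scale, and the median of the 9 genes was -0.15 there. Under quantile normalization the median of the 9 was -0.17, with all genes at 0.0158. In high against low arginine the median of the 9 was 0.21 in TPM, with all genes at -0.1044, and 0.19 under quantile normalization, with all genes at -0.0157, against 0.34 in FPKM. In TPM 4843 genes rose and 3018 fell, against 3723 and 3923 in FPKM. Leaving out 1 library gave 5 to 6 falls and 1 rise among the 9 genes in low against standard arginine, 0 calls in high against standard arginine, and 6 higher and 1 lower in high against low arginine. Over all genes the rises numbered 3333 to 3712 and the falls 3568 to 3933 in low against standard, 0 to 26 rises and 0 to 35 falls in high against standard, and 3601 to 4120 higher and 3234 to 3758 lower in high against low arginine. In high against standard arginine 17 genes rose and 21 fell. These became 4 and 2 with no filter, 0 and 0 with only both groups compared, 713 and 610 with array weights (of the 9 genes, 1 and 1), 40 and 34 with voom weights, and 46 and 42 with a replicate block, which changed no call of the 9 genes. On genes of mean FPKM 5 or more, a smaller set, 26 rose there, 2328 rose in low and 2190 were lower in high against low arginine. The cause of the other shifts was not tested. Quotients were also computed with a pseudocount of 1 and without each library, both chosen after seeing the data, and 145 values stayed within the spread of replicates and 2 did not. With 3 libraries a group, changes smaller than the intervals given were not detectable.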
